A study of Mus musculus with 12 samples.

Results

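The glycolytic enzymes described here are 10 genes chosen by name, namely Hk1, Hk2, Pfkl, Aldoa, Tpi1, Gapdh, Pgk1, Eno1, Pkm and Ldha. All 10 were among the 35999 genes of the deposited table, and all 10 passed the filter on low values, a signal that averages 10 or more across the 12 libraries, which left 8887 genes to test. LSK cells are bone marrow cells that lack lineage markers and carry Sca-1 and KIT, and they were sorted from 12 mice and sequenced with 1 library per mouse. Of these mice, 6 were labelled WT and 6 were labelled Fancg KO, and the study's methods call the latter Fancg-/- mice, while no treatment is named for these libraries. The strain, sex and age of the mice are not given in the sources used here, and no other allele is named for either genotype. Loss of a gene of the Fanconi anemia pathway impairs repair of crosslinked DNA, and the comparison asked which transcripts of stem and progenitor cells change with it.

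Glycolysis splits glucose into pyruvate in the cytosol and yields ATP without oxygen. Hexokinases trap glucose in the cell, phosphofructokinase commits it to the pathway, aldolase and triosephosphate isomerase make and interconvert the three-carbon sugars, the steps from GAPDH to pyruvate kinase recover ATP, and lactate dehydrogenase regenerates NAD+ by turning pyruvate into lactate. Hematopoietic stem cells in the bone marrow are known for a reliance on glycolysis, and many of these genes are textbook targets of the hypoxia-inducible factor HIF-1.

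Fancg, the gene targeted in the KO mice, did not separate the labels in its value per gene, which does not show whether a transcript is altered. It averaged 9.43 over the 12 libraries, below the filter. Its signal ran from 4.76 to 24.1 in the libraries labelled WT (median 8.59) and from 4.46 to 14.5 in those labelled KO (median 7.91), with a two-sided exact permutation p of 0.636, so each direction below is one between libraries carrying these labels. The signal is the deposited value per gene and library, taken to be read counts estimated by kallisto and scaled per library, and its total per library lay between 1576100 and 2672900. From the value repeated most often in a library these totals correspond to roughly 1235100 to 2471400 reads, and the 10 enzymes together to roughly 562 to 1352 reads per library. Of the LSK markers, Kit (283 to 435) and Cd34 (528 to 728) were high and Ly6a, which encodes Sca-1, was low (4.84 to 17.4). Flt3, a receptor of multipotent progenitors, ran from 363 to 646 with the WT label and from 178 to 523 with the KO label, with a log2 fold change of -0.51. It was the 1 LSK marker of 11 tested that met the unadjusted threshold of 0.05 in limma, with the lower mean in the KO label, and it did not pass adjustment. Its part in the results below was not tested. All 8 neutrophil markers, 6 of 8 erythroid markers (with Slc4a1 at 0 throughout), 6 of 7 T and NK markers, 5 of 7 B cell markers and 4 of 7 macrophage and monocyte markers stayed under 10 in every library. The markers of other lineages above this level were read in both labels, such as Ebf1 (22.6 to 288), Nkg7 (29.2 to 74.95) and Csf1r (11.8 to 70.3), and the summed markers of each of these lists overlapped between the labels. The libraries labelled WT replicate 3 and Fancg KO replicate 7 were low in Y-linked transcripts. Lars2 took 15.6% to 19.0% of the signal in the 4 libraries numbered 2 and 3 and 24.7% to 36.2% in the 8 libraries numbered 4 to 7. In bulk RNA, fewer cells of a type and less RNA per cell cannot be told apart.

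None of the 10 enzymes passed the test for a difference between the labels. The number with an unadjusted limma p under 0.05 was 0 of 10, where 3.67% of all genes tested (326 of 8887) met that threshold, and the number with an adjusted p under 0.05 was 0 of 10 and 0 of 8887. By the two-sided exact permutation test, too, 0 of 10 had a p under 0.05. The 2 labels overlapped in signal for each enzyme, and over all genes tested they failed to overlap for 0.09%. On the log2 scale 8 enzymes had the higher mean in the libraries labelled KO and 2 the lower mean, where 50.7% of all genes tested had the higher mean there. The median of the 10 log2 fold changes was 0.08, beside a median of 0.00 over all genes tested, and this is given without a test. Every 95% interval held 0, and the intervals together reached from -0.54 to 0.80.

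**Figure D1:**
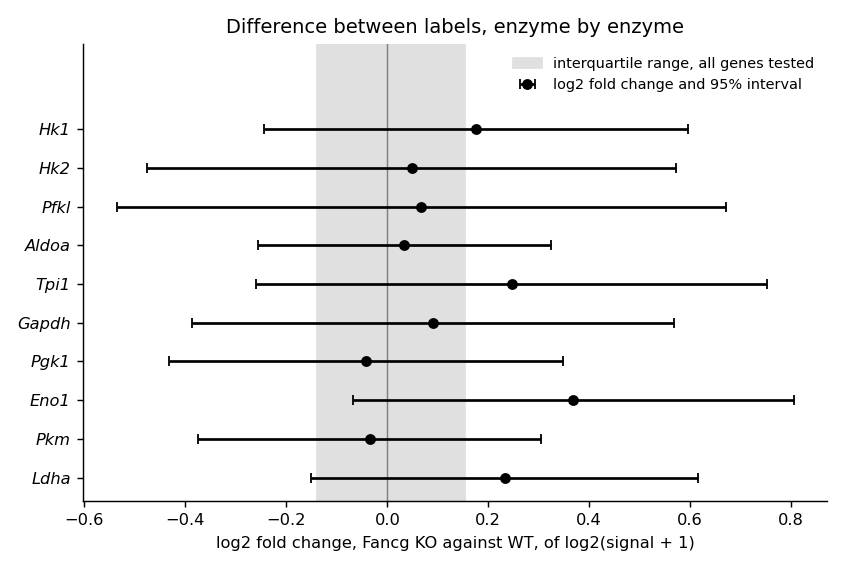
Log2 fold change of each enzyme between the libraries labelled Fancg KO and WT (points) with the 95% interval from limma (bars), on the scale of log2(signal + 1), with the interquartile range of the 8887 genes tested shaded. Each interval crosses 0, and Eno1 has the point farthest from 0, at 0.37.

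The hexokinases Hk1 and Hk2 catalyse the first step of the pathway. Hk1 ran from 22.4 to 32.4 in the libraries labelled WT (median 27.0) and from 20.2 to 43.4 in those labelled KO (median 28.3). Its 2 highest libraries were both labelled KO, replicates 5 and 7, and the lowest was as well, so the KO label had the wider spread, with a coefficient of variation of 28.0% beside 14.95%. Its log2 fold change was 0.18 (limma 95% interval -0.24 to 0.60, exact permutation p = 0.355). Hk2 ran from 13.9 to 29.4 in the libraries labelled WT (median 23.9) and from 14.0 to 33.4 in those labelled KO (median 22.6). The labels covered almost the same range, and the log2 fold change was 0.05 (limma 95% interval -0.48 to 0.57, exact permutation p = 0.857).

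Pfkl encodes the liver type of phosphofructokinase, the committed step. Its signal ran from 13.3 to 25.03 in the libraries labelled WT (median 15.8) and from 7.37 to 26.7 in those labelled KO (median 19.5). The smallest value of all, in the library labelled KO replicate 6, rests on about 6.501 reads. At a log2 fold change of 0.07 (limma 95% interval -0.54 to 0.67, exact permutation p = 0.840), Pfkl had the widest interval of the 10.

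Aldoa, the aldolase that splits fructose 1,6-bisphosphate, varied least. Its signal ran from 69.1 to 95.3 with the WT label (median 80.5) and from 71.9 to 105 with the KO label (median 80.2). The medians differed by less than the spread within either label, and the highest library was 1.52 times the lowest, the smallest such ratio among the 10. With a log2 fold change of 0.03 and a limma 95% interval of -0.26 to 0.32 (0.837-fold to 1.25-fold, exact permutation p = 0.764), Aldoa had the narrowest bounds. Tpi1, the isomerase that makes both three-carbon sugars usable, ran from 41.8 to 91.0 with the WT label (median 56.6) and from 49.6 to 118 with the KO label (median 65.9). Replicate 4 was the highest library of both labels. For Tpi1 the log2 fold change was 0.25 (limma 95% interval -0.26 to 0.75, exact permutation p = 0.368).

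**Figure D2:**
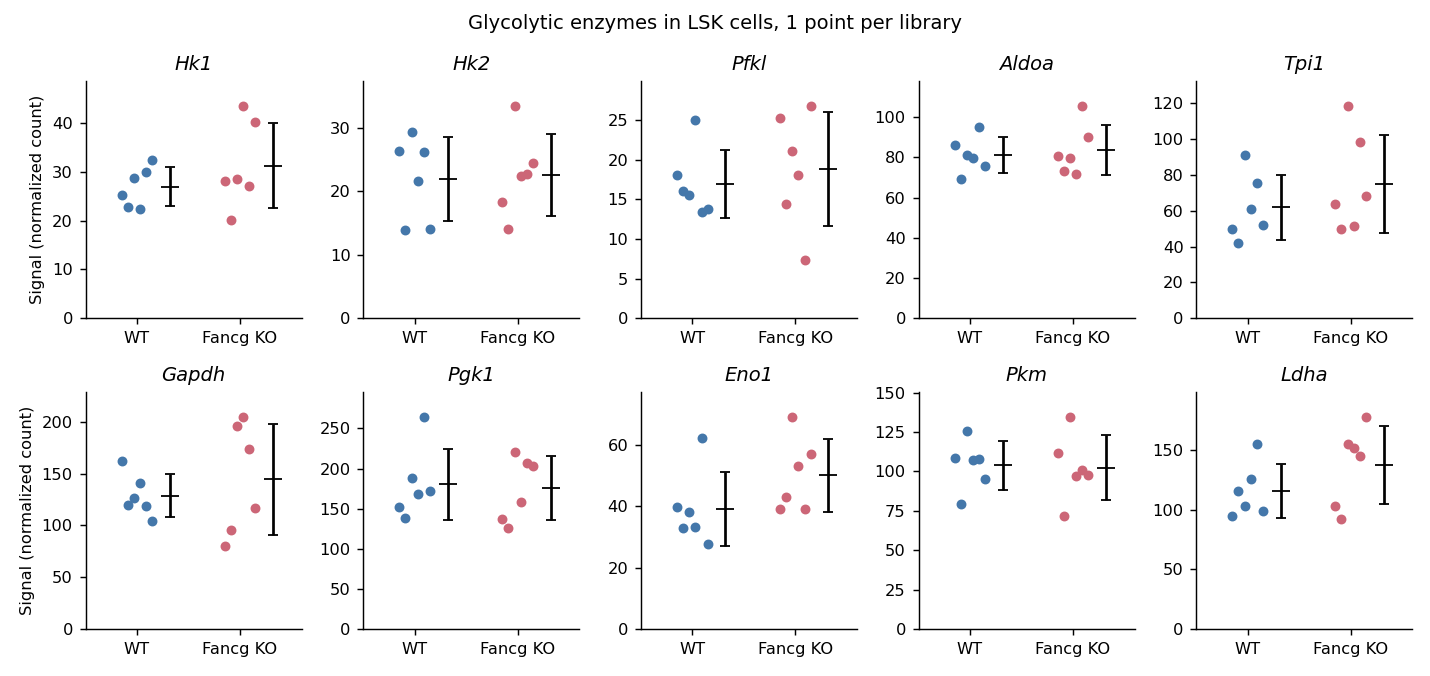
Signal of each enzyme (normalized count, linear axis from 0) in the 6 libraries labelled WT (blue) and the 6 labelled Fancg KO (red), placed from left to right by replicate number, with mean and SD in black. The labels overlap in every panel, and Gapdh has the wider spread with the KO label, from 80.1 to 204.

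Gapdh, the dehydrogenase that forms NADH and opens the ATP-yielding steps of the pathway, is often used as a reference gene. It ran from 104 to 163 with the WT label (median 123) and from 80.1 to 204 with the KO label (median 145). Both the 2 lowest and the 3 highest libraries carried the KO label, and the coefficient of variation was 37.1% with this label beside 15.9% with the WT label. For Gapdh the log2 fold change was 0.09 (limma 95% interval -0.39 to 0.57, exact permutation p = 0.725). The direction of its own row, apart from the copies described below, split with the replicate number. The log2 difference was -0.67 in the libraries numbered 2 and 3, 2 with each label, and 0.47 in those numbered 4 to 7, 4 with each label. Among these 8 libraries the limma p was 0.0373 and the exact permutation p 0.114, while 3.83% of genes tested had a limma p under 0.05 there. The smallest adjusted limma p of the 10 enzymes was 0.9988 there. These sets of numbers were formed from the share taken by Lars2, after the data were seen, and the difference between them was not tested.

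Most of the signal that could belong to Gapdh stood on another gene. Gm7336 (ENSMUSG00000078636.4, GRCm38 chromosome 7, 51746647 to 51747878, plus strand) is annotated as a processed pseudogene, an intronless copy of the Gapdh mRNA (ENSMUSG00000057666.18, GRCm38 chromosome 6, 125161715 to 125166467, minus strand). Its 1232 bases aligned to the 1420-base Gapdh transcript over 1230 bases, of which 1229 were identical. The 1 substitution was G197A, with positions counted from 1 at the 5′ end of the Gapdh transcript and the Gapdh base first, which lies before the start codon at position 241. Gm7336 also held 2 extra bases from its position 1092, after the end of the coding sequence. The 1002-base coding sequence was the same in both, so a read from within it carries nothing that tells Gapdh from Gm7336. Its first 90 bases are shown because they read identically in the gene and in the pseudogene, with the start codon in capitals.

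Gapdh and Gm7336: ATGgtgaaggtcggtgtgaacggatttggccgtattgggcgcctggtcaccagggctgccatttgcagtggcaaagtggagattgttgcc

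The signal of Gm7336 ran from 218 to 487 with the WT label (median 322) and from 231 to 498 with the KO label (median 310), and it was above that of Gapdh in 12 of 12 libraries. Its log2 fold change was 0.04 (limma 95% interval -0.41 to 0.49, exact permutation p = 0.887). In all, 43 genes of the table shared at least 50% of their 31-base stretches with Gapdh transcripts, and 35 of them had signal in at least 1 library. The 42 apart from Gm7336 summed to between 17.6 and 53.7 per library, and the 2 of them whose stretches were all shared reached at most 0.00589. Gapdh itself held 18.5% to 37.1% of the signal of Gapdh and its copies. This share was 18.6% in the library labelled WT replicate 6 and 18.5% in the library labelled KO replicate 7, and it was 37.1% and 36.8% in the libraries labelled KO replicates 4 and 5, the 2 libraries with the highest Gapdh. Summed over Gapdh and all its copies the signal ran from 352 to 671, the coefficient of variation with the KO label was 24.4%, and the log2 fold change was 0.05 (exact permutation p = 0.775). In the libraries numbered 2 and 3 this sum was 513 and 376 with the WT label and 392 and 352 with the KO label. Numbers 4 to 7 gave, in order, 529, 497, 637 and 429 with the WT label. With the KO label they gave 529, 555, 671 and 632. How reads were divided between these genes when the table was made, and its part in the split by replicate number, were not tested.

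**Figure D3:**
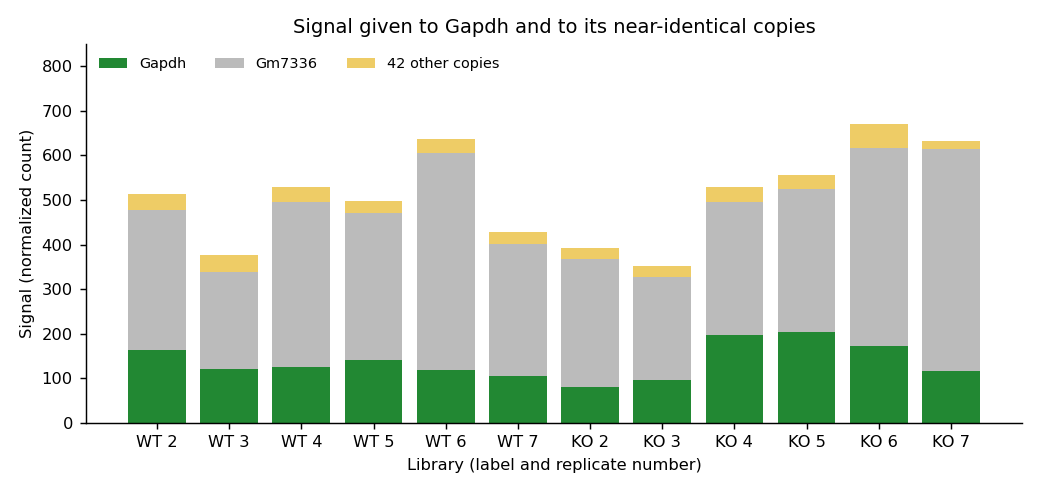
Signal (normalized count, stacked bars from 0) of Gapdh, of the pseudogene Gm7336 and of the 42 other near-identical copies in each library, named by label and replicate number. Gm7336 has the largest segment in all 12 libraries, and Gapdh makes up 18.5% to 37.1% of a bar.

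Pgk1 is the kinase of the first ATP-yielding step. It ran from 138 to 264 with the WT label (median 170) and from 126 to 220 with the KO label (median 181). The library labelled WT replicate 6 was the highest, and replicates 2 and 3 were the lowest in both labels. For Pgk1 the log2 fold change was -0.04 (limma 95% interval -0.43 to 0.35, exact permutation p = 0.831), a direction that turned to 0.04 when libraries were scaled to equal totals. Of 3 near-identical copies of Pgk1, Gm5537 had signal from 0 to 48.3, was at 0 in 2 libraries, and shared all its 31-base stretches with Pgk1.

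Eno1, the enolase that makes phosphoenolpyruvate, had the largest log2 fold change of the 10. It ran from 27.7 to 62.2 with the WT label (median 35.7) and from 39.1 to 69.1 with the KO label (median 48.1). Of the libraries labelled WT, 5 lay between 27.7 and 39.7 and replicate 6 stood apart at 62.2. The mean was 39.0 ± 12.1 with the WT label and 50.1 ± 11.9 with the KO label (SD, n = 6 each), a log2 fold change of 0.37 or 1.29-fold (limma 95% interval 0.954-fold to 1.75-fold). With a limma p of 0.0925 and an exact permutation p of 0.104, Eno1 stood at rank 640 of 8887 by p, and its adjusted p was 0.9996. Without the library labelled WT replicate 6 the log2 fold change was 0.51 and the unadjusted limma p 0.0152, in a fit that gave 4.09% of all genes a p under 0.05. Summed with its 2 near-identical copies, of which Eno1b is annotated as protein-coding and ran from 4.16 to 21.6, Eno1 differed by 0.22 on the log2 scale (exact permutation p = 0.223). Eno1 alone held 39.3% to 91.6% of that sum.

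Pkm, the pyruvate kinase that forms pyruvate and ATP, ran from 79.5 to 126 with the WT label (median 108) and from 71.8 to 135 with the KO label (median 99.4). Replicate 3 was the lowest and replicate 4 the highest library of both labels. Its log2 fold change was -0.03 (limma 95% interval -0.38 to 0.31, exact permutation p = 0.820) and turned to 0.05 with equal totals. The deposited values are per gene, so the M1 and M2 splice forms of Pkm are not separated. Ldha, the lactate dehydrogenase subunit that favours lactate, ran from 95.004 to 155 with the WT label (median 110) and from 92.4 to 178 with the KO label (median 149). Of the 6 libraries labelled KO, replicates 4 to 7 lay between 145 and 178, and of those labelled WT only replicate 6 reached that range. For Ldha the log2 fold change was 0.23 (limma 95% interval -0.15 to 0.62, exact permutation p = 0.227). It was -0.10 in the libraries numbered 2 and 3 and 0.40 in those numbered 4 to 7, with a limma p of 0.0455 and an exact permutation p of 0.0857 among these 8.

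Between genes, levels were compared per kilobase, with the median length of the annotated protein-coding transcripts of each gene in GENCODE. The signal per kilobase was 159 ± 36.6 for Ldha (SD, n = 12), 142 ± 24.0 for Pkm, 127 ± 36.7 for Gapdh, 103 ± 13.1 for Aldoa and 97.5 ± 22.1 for Pgk1. Each of the first 3 was above the next in 8 of 12 libraries and Aldoa was above Pgk1 in 9, so none of these neighbours kept 1 order throughout, while Pgk1 was above Eno1 (57.7 ± 16.6) in 12 of 12. Tpi1 (56.8 ± 19.3) and Hk1 (50.1 ± 11.8) overlapped Eno1, and Pfkl (8.29 ± 2.66) and Hk2 (7.97 ± 2.25) were lowest, below Hk1 in 12 of 12 libraries. The order rests on the length used, since the median counts short incomplete models. With the longest protein-coding transcript Pgk1 (97.5) and Gapdh (96.2) came first, Ldha fell to 69.9, Pkm to 42.4 and Hk1 to 6.80, and Hk1, Pfkl and Hk2 were the lowest 3. The level of Gapdh is that of its own row. Summed with its near-identical copies it was 472 ± 98.04 with the median length and 359 ± 74.4 with the longest, above every other enzyme in 12 of 12 libraries with either.

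How the isoenzymes of a step shared its signal per length also rested on the length for 2 families. Among hexokinases, Hk3, which is known from myeloid cells and is not one of the 10, held 47.9% with the median length (33.0% to 64.4% over 12 libraries), Hk1 44.8% and Hk2 7.26%, and Hk3 was the highest in 7 libraries and Hk1 in 5. With the longest transcript Hk3 held 81.2% and was the highest in 12 of 12. Among phosphofructokinases, Pfkm, the muscle type, held 41.8% with the median length, Pfkp, the platelet type, 33.8% and Pfkl 24.4%, and Pfkm was the highest in 7 libraries and Pfkp in 5. With the longest transcript Pfkm held 58.7% and was the highest in 12 of 12. Hk2 and Pfkl were the highest in 0 libraries with either length. Pkm held 99.9% of pyruvate kinase, Eno1 90.7% of enolase and Ldha 93.1% of lactate dehydrogenase signal with the median length, and each was the highest of its family in 12 of 12 libraries with either length. Pklr, the liver and red cell pyruvate kinase, and Ldhc stayed at or near 0.

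Ratios between isoenzymes were taken within a library, after 1 was added to each signal, so that the scaling of a library still enters where a gene is low. The log2 ratio of Ldha to Ldhb was 3.32 ± 0.60 with the WT label, from 2.78 to 4.37, and 4.10 ± 0.66 with the KO label, from 3.02 to 4.97 (SD, n = 6 each). It was positive in 12 of 12 libraries, and 5 of 6 libraries labelled KO lay above 5 of 6 labelled WT. The difference of 0.78 (SE 0.37) had an exact permutation p of 0.0606, or 0.182 adjusted over the 3 ratios. It was 0.86 (exact permutation p = 0.0563) with nothing added, where a library's scaling cancels, and 0.59 (exact permutation p = 0.0671) with 5 added. Leaving out the library labelled WT replicate 6 or KO replicate 5, the exceptions on each side, brought the exact permutation p to 0.0195 and the difference to 0.993 or 0.998. Both were singled out because their values ran against the difference, so a larger difference without them was given in advance. This p is not adjusted over the 3 ratios. Ldhb, the subunit that favours pyruvate, was read at 6.55 to 14.5 with the WT label and 3.67 to 17.9 with the KO label, close to the counting limit. The log2 ratio of Hk1 to Hk2 differed by 0.13 (SE 0.26, exact permutation p = 0.610) and that of Pfkl to Pfkp by -0.30 (SE 0.48, exact permutation p = 0.565), both smaller than the spread within a label. In the latter, the library labelled WT replicate 6 stood at -1.44 while the other 5 with the WT label lay between 0.27 and 0.68.

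**Figure D4:**
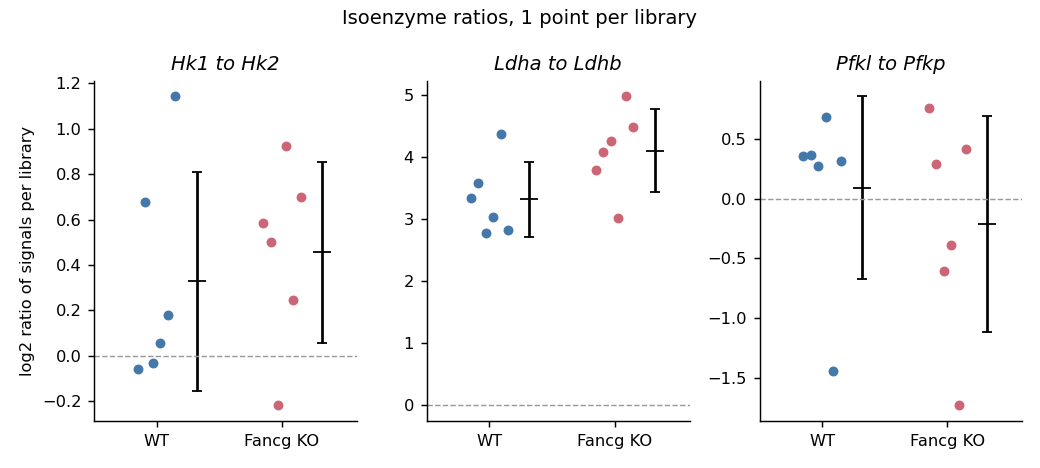
Log2 ratio of 3 isoenzyme pairs in each library labelled WT (blue) or Fancg KO (red), with mean and SD in black and equal signal as a dashed line. Ldha exceeds Ldhb in all 12 libraries, from 2.78 to 4.97 on the log2 scale.

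Most of the 10 enzymes varied together from library to library. Over deviations from the label means in 12 libraries, 41 of 45 pairs had a positive Pearson r, with a median of 0.38, where 51.2% of all pairs of genes tested were positive with a median of 0.01. The libraries share depth and scaling across genes, and these values are a description. Pgk1 had the highest median r with the other 9 (0.68), and the closest pair was Hk2 and Pkm (0.85). Pfkl had the lowest median r (0.06), ran from -0.39 with Aldoa to 0.25 with Pkm, and was in every pair with a negative r. In SDs from the mean of each gene, averaged over the 10, the libraries numbered 3 were lowest (-0.94 with the WT label and -1.10 with the KO label) and the library labelled KO replicate 4 was highest (1.06). The 8 cell cycle genes, such as Mki67 and Top2a, summed to 846 and 841 in the libraries numbered 3, the lowest of each label, and to 1511 and 1725 in those numbered 6, the highest of each label. The order was not the same throughout. In the library labelled KO replicate 4, the highest for the enzymes, they summed to 1308, below KO replicates 5 to 7 (1506 to 1725). In the libraries numbered 6 the enzymes stood at 0.61 with the WT label and 0.31 with the KO label. The 10 enzymes took 0.0260% to 0.0332% of the signal in the libraries numbered 2 and 3 and 0.0428% to 0.0588% in those numbered 4 to 7. Their summed signal overlapped between these sets, at 601 to 764 for numbers 2 and 3 and 687 to 1056 for numbers 4 to 7. The totals per library were 1807000 to 2672900 and 1576100 to 1982600. With Lars2 left out of the total, the shares of the enzymes were 0.0309% to 0.0407% in numbers 2 and 3. In numbers 4 to 7 they were then 0.0613% to 0.0906%. The part of cell division or of the share taken by Lars2 in this pattern was not tested. Outside all lists, the genes that followed the mean of the enzymes most closely over the 12 libraries were Hist1h3f (r = 0.95), a histone H3 gene, Tubb5 (r = 0.94), a beta-tubulin, Psmd7 (r = 0.94), a proteasome subunit, Rack1 (r = 0.93), a ribosome-bound scaffold protein, and Rwdd4a (r = 0.93).

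**Figure D5:**
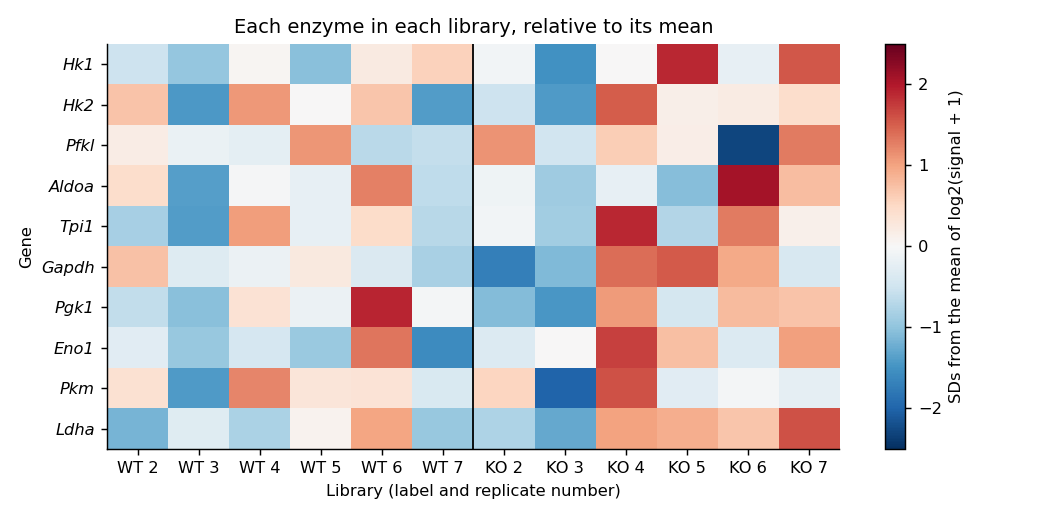
Each enzyme (rows) in each library (columns, label and replicate number), as SDs from the gene's mean of log2(signal + 1) over 12 libraries, red above and blue below. The libraries numbered 3 are mostly blue with either label, and KO replicate 4 is mostly red.

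Pgk1 and Ldha, whose deviations had an r of 0.79, are shown with the 250 bases before their start (RefSeq, GRCm38.p6), since both windows hold the core of the HIF-1 response element. Capitals mark ACGTG and its reverse complement, which share bases where both strands match at the same place, and the Ldha window is the first of 2 listed for that gene.

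Pgk1, chrX:106186850-106187099, plus strand: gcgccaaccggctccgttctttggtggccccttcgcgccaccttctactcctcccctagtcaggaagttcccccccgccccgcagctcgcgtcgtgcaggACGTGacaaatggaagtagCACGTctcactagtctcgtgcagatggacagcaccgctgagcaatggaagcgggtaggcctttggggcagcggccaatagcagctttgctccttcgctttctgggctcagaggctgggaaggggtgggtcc
Ldha, chr7:46845554-46845803, plus strand: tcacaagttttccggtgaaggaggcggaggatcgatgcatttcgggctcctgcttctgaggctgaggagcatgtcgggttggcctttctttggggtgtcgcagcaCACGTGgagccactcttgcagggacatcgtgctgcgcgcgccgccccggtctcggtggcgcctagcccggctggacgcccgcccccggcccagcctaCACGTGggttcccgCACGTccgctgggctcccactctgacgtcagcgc

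The Pgk1 window held 2 matches and the Ldha window 5, counting each strand, since 2 of its places match on both strands. At least 1 window held the motif in 5 of the 10 enzymes (Hk2, Aldoa, Pgk1, Pkm and Ldha), beside 18.5% of 27025 genes. By window it was found in 6 of 17 for the enzymes, beside 16.6% of all 32851 windows. The related core GCGTG was found in 5 of the 10 and in 30.9% of all genes. By window it was found in 7 of 17 for the enzymes, beside 28.2% of all windows. The single Tpi1 window held neither core. Deviations of Tpi1 had an r of 0.79 with Pgk1, 0.79 with Pkm and 0.41 with Ldha. Whether the motif goes with such r values was not tested. A match describes the letters of a window and says nothing of binding in these cells.

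Of the other genes of these pathways, in 5 lists of 82 names, 46 were tested, and 1 had the higher and 1 the lower mean with the KO label at an unadjusted limma p under 0.05, beside 1.98% and 1.69% of all genes tested. None passed adjustment. Pfkfb2, which makes the activator of phosphofructokinase fructose 2,6-bisphosphate, ran from 17.8 to 27.8 with the WT label (median 23.3) and from 24.0 to 43.7 with the KO label (median 30.2). Of its libraries labelled KO, 4 lay above every library labelled WT. For Pfkfb2 the log2 fold change was 0.47 (SE 0.19, unadjusted limma p of 0.0253, exact permutation p = 0.0195, adjusted limma p = 0.9996). Without WT replicate 5 or 7 or KO replicate 4 or 6, its unadjusted limma p was 0.0611, 0.0509, 0.0632 or 0.0607. Pgd, the 6-phosphogluconate dehydrogenase of the pentose phosphate pathway, ran from 25.5 to 36.1 with the WT label (median 29.1) and from 16.2 to 32.0 with the KO label (median 21.0). In 4 libraries labelled KO it was below every library labelled WT. For Pgd the log2 fold change was -0.40 (SE 0.19, unadjusted limma p of 0.0469, exact permutation p = 0.0325, adjusted limma p = 0.9996). This unadjusted limma p rose above 0.05, to at most 0.105, without WT replicate 2, 5, 6 or 7 or KO replicate 3, 4, 5 or 7. With libraries scaled to equal totals it was 0.216, with totals that leave out the 15 highest genes 0.139, without the 2 libraries low in Y-linked transcripts 0.0678 and with a pseudocount of 5 0.0511.

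Neighbouring genes of the pathway named here did not pass the test either. The glucose transporters Slc2a1 (3.12 to 12.2 over both labels) and Slc2a3 (5.53 to 15.9) were below the filter, with log2 differences of -0.19 (exact permutation p = 0.571) and -0.26 (exact permutation p = 0.303). Gpi1, which isomerises glucose 6-phosphate, ran from 69.5 to 158 with a log2 fold change of 0.04. The phosphofructokinases Pfkm (0.24, exact permutation p = 0.422) and Pfkp (0.37, exact permutation p = 0.290) both had the higher mean with the KO label. Tigar, a phosphatase known as a p53 target that opposes glycolysis, ran from 3.57 to 24.9 with a log2 difference of -0.29 (exact permutation p = 0.535). For Pgam1, the mutase before enolase, the value was -0.08 (exact permutation p = 0.738), and for Ldhb the log2 difference was -0.55 (exact permutation p = 0.154). The lactate exporters were Slc16a1, at 70.2 to 172 with the value 0.27 (exact permutation p = 0.288), and Slc16a3, at 0 to 8.49 with a log2 difference of -0.91 (exact permutation p = 0.156). Pdk1, which encodes a kinase that inhibits pyruvate dehydrogenase, was at 0.06 on the log2 scale (exact permutation p = 0.844), and Hif1a at -0.20 (exact permutation p = 0.355). When each library was left out, these values ran from -0.38 to -0.06 for Slc2a1, -0.36 to -0.13 for Slc2a3, -0.33 to -0.08 for Hif1a and 0.11 to 0.40 for Pfkm, and without the 2 libraries low in Y-linked transcripts Slc2a1 was at -0.57 (exact permutation p = 0.0556). Without WT replicate 6, the values of Pfkp (0.61, limma p of 0.0351) and Slc16a1 (0.43, limma p of 0.0498) passed the unadjusted threshold, as did Ldhb without KO replicate 5 (-0.80, exact permutation p = 0.0130). In each case the library left out held the highest signal of that gene in its label. In the fit without WT replicate 6, 4.09% of all genes had a limma p under 0.05 and 0 passed adjustment. For the exact test of Ldhb no share over all genes was taken.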

How the data were processed

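RNA-seq of sorted LSK cells from 12 mice was analysed. The authors deposited signal values, 1 for each gene in each library, which appear from the table to be estimated counts scaled by a factor per library. The labels name kallisto without a version, and the mouse build, annotation and normalization are not given in the sources used here. Columns were matched to libraries by title, and 0 columns were left unused. Genes whose signal averaged 10 or more were tested with limma 3.58.1 (R 4.3.3, empirical Bayes with trend, two-sided) on log2(signal + 1), a scale that understates changes of low genes, with Benjamini-Hochberg adjustment over 8887 genes. Genes below the filter and isoenzyme ratios were tested by two-sided exact permutation of log2 values, for which 6 against 6 libraries allow a smallest p of 0.00216. Each library is 1 mouse, and p-values measure the spread between these libraries.

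Near-identical copies were genes with at least 50% of their 31-base stretches in transcripts of a member (GENCODE vM21, GRCm38). Gapdh-203, its longest coding transcript, was aligned to Gm7336 with Biopython 1.88 (match 2, mismatch -2, gap opening -6, extension -0.5, free end gaps). Levels per length used the median length of protein-coding transcripts, and the longest as an alternative. Promoter windows came from RefSeq. Read numbers divide a total by the value repeated most often in that library and are approximate, since 10.4% to 11.4% of values above 0 were whole multiples of it within 0.001.

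The members and gene lists were chosen with earlier results of these data known. Named genes are the 10 members, a fixed list of 12 neighbouring genes, every pathway gene with an unadjusted p under 0.05, copies whose signal averaged 10 or more, and the 5 genes outside all lists that followed the members most closely. Isoenzymes and marker genes named beside them were chosen after their values were seen. Tests were tried on simulated data. Alternatives were other pseudocounts, filters, scalings, the replicate block, limma without trend, leaving out each library, summing copies and, added after the data were seen, replicates 4 to 7 alone, ratios without a pseudocount and isoenzyme shares with the longest transcript.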

Additional observations from a re-analysis of the deposited data

Results flagged for a closer look

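In 62 groups of 6 libraries, the value at one end stood apart from the other 5 by Dixon's criterion in 6. For independent, normally distributed values, chance alone gives about 1 in 20 groups. The groups here were not independent, since ratios share values with their genes. The library labelled WT replicate 6 gave 4 of the 6. Its Eno1 signal was 62.2 while the other libraries labelled WT lay between 27.7 and 39.7, its Pfkp signal was 38.0 against 10.9 to 15.3, and its Tigar signal was 24.9 against 3.57 to 11.4. Its log2 ratio of Pfkl to Pfkp, which uses the same Pfkp value, was -1.44 against 0.27 to 0.68. Pfkm was 62.6 in the library labelled WT replicate 3 against 22.9 to 37.0 in the others of that label. Ldhb was 17.9 in the library labelled Fancg KO replicate 5 against 3.67 to 7.18. For some cell types the summed markers of WT replicate 6 also lay at an end of its label. Its macrophage and monocyte markers summed to 115, and WT replicate 4 came next with 45.7. With the KO label, replicates 4 and 6 reached 104 and 89.5. Its LSK markers summed to 1878, the lowest with the WT label, and WT replicate 5 came next with 2064. KO replicate 6 was lower still, at 1518. The causes, and the part of cell composition in the values set apart, were not tested.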

How the results depend on the processing

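With at most about 282 reads per enzyme and library, counting error is part of the spread. The count of enzymes with an unadjusted limma p under 0.05 stayed at 0, except that it was 0 to 1 when each library was left out (Eno1, without WT replicate 6), likewise 0 to 1 by the exact test, and 2 with replicates 4 to 7 alone, where Gapdh was at 0.47 and Ldha at 0.40. The count with an adjusted p under 0.05 was 0 under every alternative run. The median of the 10 log2 fold changes ran from 0.0095 to 0.21, and from 0.025 to 0.18 when each library was left out. Without the 2 libraries with few Y-linked transcripts the log2 fold change was -0.096 for Hk2, -0.060 for Pfkl, -0.034 for Aldoa, -0.14 for Gpi1 and -0.11 for Pdk1. With equal totals, which moved the median of all genes to 0.08, it was 0.038 for Pgk1, 0.045 for Pkm and 0.0020 for Pgam1, and with totals that leave out the 15 highest genes 0.0023 for Pkm. With replicates 4 to 7 alone it was 0.0073 for Pgk1 and -0.039 for Pdk1. When each library was left out, the log2 fold changes ran from 0.075 to 0.29 for Hk1, -0.070 to 0.17 for Hk2, -0.050 to 0.30 for Pfkl, -0.035 to 0.081 for Aldoa, 0.10 to 0.37 for Tpi1, -0.027 to 0.24 for Gapdh, -0.11 to 0.073 for Pgk1, 0.27 to 0.51 for Eno1, -0.12 to 0.061 for Pkm, 0.15 to 0.34 for Ldha, -0.093 to 0.14 for Gpi1, -0.20 to 0.060 for Pgam1, -0.47 to 0.025 for Tigar and -0.044 to 0.21 for Pdk1. The difference in log2 ratio then ran from 0.034 to 0.29 for Hk1 to Hk2, 0.61 to 0.998 for Ldha to Ldhb and -0.61 to 0.0049 for Pfkl to Pfkp. The cause of these turns was not tested.

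The count of other pathway genes with an unadjusted p under 0.05, 2 as reported, was 1 (Pfkfb2, without Pgd) with a pseudocount of 5, with equal totals, with totals without 15 genes and without the 2 libraries with few Y-linked transcripts, 4 without a filter, 0 at a mean signal of at least 50, where fewer genes are tested, and 0 to 4 when each library was left out. With the longest transcript the signal per kilobase was 6.80 for Hk1, 4.03 for Hk2, 4.79 for Pfkl, 53.2 for Aldoa, 22.0 for Eno1, 42.4 for Pkm and 69.9 for Ldha. Requiring 80% of stretches to be shared left 23 of 50 copies.

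Replicate numbers 2 to 7 are shared by the labels, and no label says what a number stands for. Deviations of same-numbered libraries had a correlation over 0.1 in 4 of 6 pairs, and of 0.091 for number 4 and 0.086 for number 7. Their mean was 0.20 beside -0.04 for libraries of different numbers, and 5 of 6 correlated best with their own number. This is a hint from the data that a number marks something shared, but the criterion for a paired design, a correlation over 0.1 in every pair, was not met, and the fit without the block stands. With the replicate block, 476 of 8887 genes had an unadjusted limma p under 0.05 in place of 326, the enzymes with such a p numbered 0, and the other pathway genes 5 (Pfkfb2, Pgd, Mpc1, Mpc2 and Egln1). The exact sign-flip test over the pairing left the enzymes at 0 and the ratio of Ldha to Ldhb at p = 0.0625. Of the enzymes, Tpi1 had the smallest limma p with the block, 0.103 in place of 0.317 without it. Its exact sign-flip p of 0.0938 was also the smallest of the enzymes.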
